A study of Mus musculus with 16 samples.

Results

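The Kruppel-like factors are zinc-finger transcription factors that bind CACCC and GC-rich DNA, and 10 of their genes (Klf2, Klf3, Klf4, Klf5, Klf6, Klf7, Klf9, Klf10, Klf11 and Klf15) were followed here in cultured mouse muscle cells. They were taken by name from the 35613 genes in the files, and all 10 passed the filter on low counts that left 15533 genes for testing. All cells carried the Pax7-nGFP reporter, whose green fluorescence marks cells that express Pax7, the transcription factor of muscle stem cells. "Bulk" cells were not sorted for it. Each of 5 groups had 3 libraries: bulk myoblasts at passage 3, GFP+ sorted myoblasts at passage 5 to 6, myoblasts of passage 4 to 5 kept for 3 days in differentiation medium with horse serum, and bulk and GFP+ sorted cells under the name MPC, an abbreviation left unexplained in the labels. MPC were grown for 2 to 3 passages as myoblasts and for 5 to 6 more in MPC medium, which adds forskolin (5 µM), RepSox (5 µM) and CHIR9901 (3 µM). The cells of these groups came from skeletal muscle of male mice aged 16 weeks. A single further library held GFP+ sorted MPC made from myoblasts at passage 8 that had sorted as GFP-, from a female aged 39 weeks, after 2 passages in that medium. The labels call the 3 libraries of a group biological replicates without saying whether they came from separate mice, so p-values measure the spread between these libraries.

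The libraries held between 19300307 and 29127963 estimated counts. Levels of a gene across libraries are given as CPM, its count relative to the library total scaled with TMM factors, and levels of different genes within a group as TPM, which accounts for transcript length and carries no TMM scaling. Pax7 averaged 579 CPM in bulk myoblasts, 902 in GFP+ myoblasts, 45.5 in differentiated myoblasts, 87 in bulk MPC and 766 in GFP+ MPC. The other listed markers of muscle progenitors did not all follow it. In the same order of groups, Myod1 averaged 731, 918, 329, 162 and 195 CPM and Myf5 30.4, 68.2, 15.7, 37.7 and 128 CPM. Des averaged 2290, 1010, 5130, 6390 and 680 CPM in that order. The 6 markers of differentiated muscle (Myog, Myh3, Ckm, Acta1, Tnnt3 and Mymk) summed to 35300 to 46700 CPM in bulk MPC and 42000 to 47800 in differentiated myoblasts, 13000 to 18300 in bulk myoblasts, 517 to 1190 in GFP+ MPC and 283 to 446 in GFP+ myoblasts. All bulk libraries thus held abundant RNA of differentiated muscle, bulk myoblasts included, and in these bulk samples fewer cells of a type and less RNA per cell cannot be told apart. RNA of sorted and of bulk cells was prepared with different kits, so sort and kit cannot be told apart either, and the same holds for culture medium and passage. Bulk and GFP+ myoblasts also differed in passage, while bulk and GFP+ MPC did not, so in myoblasts sort and passage cannot be told apart.

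Family members share their DNA-binding domain and differ in the proteins they recruit. Klf3 recruits the CtBP corepressors. Klf2, Klf4, Klf5, Klf6 and Klf7 mostly activate transcription, and Klf9, Klf10 and Klf11 bind the Sin3 corepressor. Klf15 is known in muscle as a glucocorticoid-induced regulator of amino acid and lipid metabolism, Klf2 and Klf4 as targets of the ERK5 and Mef2 pathway during myoblast fusion, and Klf5 as a partner of MyoD in differentiation. Klf10 and Klf11 were first described as early genes induced by TGF-beta.

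Forskolin raises cyclic AMP, which acts through CREB at the sequence TGACG, and Mef2 proteins bind near several muscle genes. The promoters below are shown for these motifs, in the members that carry them. Each is the 250 bases before the RefSeq start on GRCm38.p6, 5′ to 3′ on the gene's strand, and capitals mark TGACG on either strand or, in Klf2, the MEF2 consensus.
Klf2: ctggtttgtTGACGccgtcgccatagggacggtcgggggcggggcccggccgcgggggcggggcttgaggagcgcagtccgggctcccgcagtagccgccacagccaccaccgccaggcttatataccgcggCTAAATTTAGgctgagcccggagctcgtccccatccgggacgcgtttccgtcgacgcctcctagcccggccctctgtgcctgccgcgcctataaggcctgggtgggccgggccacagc
Klf4: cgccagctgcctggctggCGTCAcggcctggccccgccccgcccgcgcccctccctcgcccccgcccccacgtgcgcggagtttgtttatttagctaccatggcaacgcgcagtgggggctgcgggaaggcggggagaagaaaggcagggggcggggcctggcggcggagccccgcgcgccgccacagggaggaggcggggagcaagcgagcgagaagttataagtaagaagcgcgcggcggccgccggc
Klf9: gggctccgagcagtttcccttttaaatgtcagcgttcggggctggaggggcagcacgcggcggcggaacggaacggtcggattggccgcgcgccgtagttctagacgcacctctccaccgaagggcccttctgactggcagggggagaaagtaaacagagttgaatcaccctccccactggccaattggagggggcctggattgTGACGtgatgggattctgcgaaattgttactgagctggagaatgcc
Klf15: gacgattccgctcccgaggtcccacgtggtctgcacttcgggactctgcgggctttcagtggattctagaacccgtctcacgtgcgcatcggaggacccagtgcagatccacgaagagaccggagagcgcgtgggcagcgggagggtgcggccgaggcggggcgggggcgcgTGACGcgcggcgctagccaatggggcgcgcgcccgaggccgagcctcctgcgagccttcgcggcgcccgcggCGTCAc
The windows are chr8:72318812-72319061 (plus strand) for Klf2, chr4:55532476-55532725 (minus strand) for Klf4, chr19:23140976-23141225 (plus strand) for Klf9 and chr6:90462326-90462575 (plus strand) for Klf15. A promoter was matched for 8 of the 10 members, all but Klf5 and Klf10. The motif TGACG (either strand) begins 241 bases before the start in Klf2, 232 in Klf4, 46 in Klf9 and 78 and 6 in Klf15, and was not in these windows of Klf3, Klf6, Klf7 and Klf11. Of 32851 mouse promoters of the same length, 17.8% hold it. The MEF2 consensus lies 118 bases before the Klf2 start and in 2.92% of all promoters, and the full TGACGTCA is in 1.55% of all promoters and in 0 of the members. Klf4, Klf6, Klf11 and Klf15 also hold CACGTG, found in 6.02% of all promoters. GGGCGG is in every matched member but Klf9 and in 32.7% of all promoters. CACCC is in Klf2, Klf3, Klf7, Klf9 and Klf15 and in 52.0% of all promoters. The member windows ran from 59.2% (Klf7) to 78.4% (Klf3) G and C, and the shares over all promoters were not matched for this, so no enrichment is read from them. A match describes letters only, and no binding was measured in these samples.

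Klf2 had the most negative log2 fold change of the 10 members in both comparisons of MPC with myoblasts. Its level was at 11.5, 14.0 and 21.7 CPM in the 3 GFP+ myoblast libraries and at 0.453, 0.169 and 0.237 CPM in the 3 GFP+ MPC libraries, with a log2 fold change of -5.77 ± 0.36 (SE; edgeR adjusted p = 8.59e-08). The ranges do not overlap. The GFP+ MPC values rest on only 10, 4 and 6 counts, and those of bulk MPC on 15, 22 and 13. GFP+ myoblasts held 369, 368 and 456 Klf2 counts. In bulk cells Klf2 went from 12.3, 10.9 and 9.34 CPM in myoblasts to 0.701, 1.05 and 0.808 CPM in MPC, a log2 change of -3.65 ± 0.32 (adjusted p = 1.36e-06). Klf2 keeps T cells and endothelium quiescent. Its level also fell in differentiated myoblasts (2.91, 4.05 and 3.37 CPM; log2 change -1.65 ± 0.28, adjusted p = 0.000285). All 3 differentiated libraries lie above all 6 MPC libraries and below all 6 myoblast libraries. The highest means, 15.7 CPM in GFP+ myoblasts and 10.8 in bulk myoblasts, did not differ past the threshold (adjusted p = 0.145). Below them the order runs through 3.44 in differentiated myoblasts and 0.855 in bulk MPC to 0.286 in GFP+ MPC, each of the later steps passing the test.

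Klf4, a pluripotency factor and a regulator of epithelial differentiation, was lower in both kinds of MPC culture. It stood at 46.7, 47.5 and 42.8 CPM in GFP+ myoblasts and at 15.7, 2.74 and 11.4 CPM in GFP+ MPC (log2 change -2.20 ± 0.41, adjusted p = 0.000634). Bulk MPC at 17.5, 12.6 and 14.4 CPM lay below bulk myoblasts at 44.3, 46.8 and 40.3 CPM (log2 change -1.56 ± 0.40, adjusted p = 0.00426). GFP+ MPC replicate 2, at 2.74 CPM, was lower than the other MPC libraries. Differentiated myoblasts, at 28.6, 26.3 and 39.3 CPM, were not called against bulk myoblasts (adjusted p = 0.309). They were called above bulk MPC (log2 change -1.08 ± 0.40 for bulk MPC, adjusted p = 0.0401). That call was lost on leaving out any 1 of the 6 libraries (adjusted p 0.053 to 0.132).

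**Figure D1:**
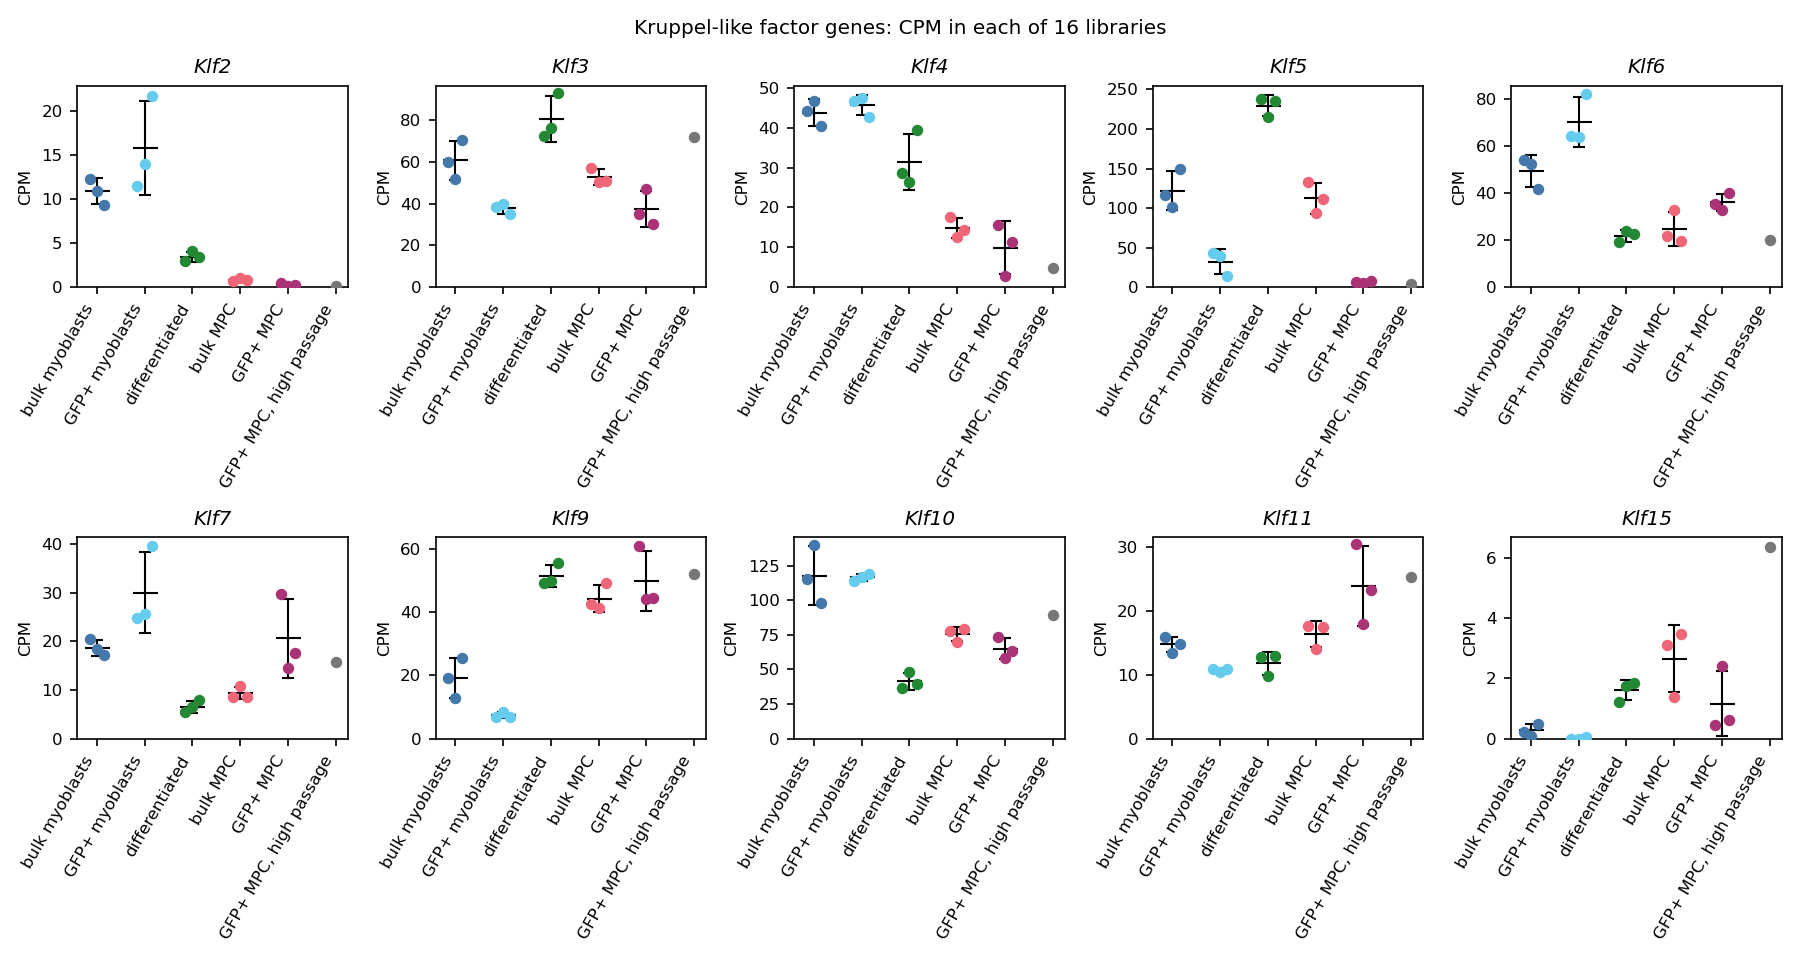
CPM of each of the 10 Kruppel-like factor genes (vertical axes, linear from 0) in the 16 libraries, by group; points are libraries, and bars show mean ± SD of 3. Klf2 and Klf4 are highest in the myoblast groups, Klf5 is near the bottom in GFP+ MPC, and Klf9 is high in the differentiated and MPC groups.

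Klf5 was lower in GFP+ than in bulk cells of both cultures and was not called between the 2 bulk cultures. It stood at 116, 101 and 149 CPM in bulk myoblasts and 133, 93.7 and 111 CPM in bulk MPC, which overlap (log2 change -0.12 ± 0.31, adjusted p = 0.766). In the sorted cells it was far lower: 43.5, 39.5 and 13.9 CPM in GFP+ myoblasts and 6.98, 4.81 and 8.01 CPM in GFP+ MPC, a log2 change of -2.29 ± 0.34 between the 2 sorted groups (adjusted p = 0.000129). The gap between GFP+ and bulk cells was -4.09 ± 0.36 on the log2 scale in MPC (adjusted p = 4.99e-07) and -1.91 ± 0.33 in myoblasts (adjusted p = 0.000847). Klf5 is known to cooperate with MyoD at muscle genes. Differentiated myoblasts were the highest group, at 238, 215 and 236 CPM, and called above bulk myoblasts (log2 change 0.91 ± 0.32, adjusted p = 0.0258), although leaving out bulk myoblast replicate 1 or 2 or differentiated replicate 1 or 3 ended that call (adjusted p 0.0595 to 0.0958). The differentiated muscle markers listed above are also lower in the sorted groups, and their part in the Klf5 difference was not tested.

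Klf6 and Klf7 had their highest means in GFP+ myoblasts, which did not overlap bulk myoblasts but missed the threshold (log2 change 0.51, adjusted p = 0.0509, and 0.69, adjusted p = 0.0549). Both passed with DESeq2 size factors (0.0367 and 0.0421), with DESeq2 (0.0205 and 0.0236) and with only the groups compared (0.0389 and 0.0397). Klf6 also passed on length-scaled counts (0.0217), and Klf7 without GFP+ myoblast replicate 1 (0.0487). Klf6, an immediate early activator, stood at 64.3, 63.5 and 82.1 CPM there and at 35.3, 32.9 and 39.9 CPM in GFP+ MPC, with no overlap (log2 change -0.96 ± 0.18, adjusted p = 0.000841). In bulk cells it went from 53.9, 52.2 and 41.7 CPM in myoblasts to 21.7, 32.9 and 19.5 CPM in MPC (log2 change -0.99 ± 0.19, adjusted p = 0.000496), and it was also lower after differentiation (19.1, 23.9 and 22.5 CPM; log2 change -1.18 ± 0.19, adjusted p = 0.00017). Bulk MPC and differentiated libraries overlap, with a log2 difference of 0.18 ± 0.19 (adjusted p = 0.455). Klf7 was at 20.4, 18.4 and 17.1 CPM in bulk myoblasts and fell to 8.6, 10.8 and 8.64 in bulk MPC (log2 change -0.99 ± 0.26, adjusted p = 0.005) and to 5.47, 6.41 and 7.87 in differentiated cells (log2 change -1.50 ± 0.26, adjusted p = 0.000377). In sorted cells the Klf7 value was lower in MPC (29.8, 14.5 and 17.6 CPM) than in myoblasts (24.7, 25.7 and 39.6 CPM), with overlap and no call (log2 change -0.54 ± 0.25, adjusted p = 0.0932); leaving out GFP+ MPC replicate 1 gave -0.90 and adjusted p = 0.00625.

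Klf9, a target of glucocorticoid and thyroid hormone receptors, was higher in both MPC groups and in differentiated cells than in the myoblasts of the same sort. In GFP+ cells it went from 6.75, 8.46 and 6.90 CPM to 60.8, 44.2 and 44.4 CPM (log2 change 2.76 ± 0.22, adjusted p = 5.7e-07). In bulk cells the 3 myoblast libraries at 19.1, 13.0 and 25.4 CPM lay below MPC at 42.4, 41.3 and 49.0 CPM (log2 change 1.20 ± 0.20, adjusted p = 0.000233) and below differentiated cells at 49.2, 49.7 and 55.5 CPM (1.42 ± 0.20, adjusted p = 7.61e-05). The 3 groups with high Klf9 did not differ among themselves past the threshold (adjusted p 0.395 to 0.837 in the pairs). Klf10, induced early by TGF-beta, moved the other way: 115, 140 and 98 CPM in bulk myoblasts, 77.4, 69.8 and 79.0 in bulk MPC (log2 change -0.64 ± 0.14, adjusted p = 0.00125) and 36.6, 48.5 and 39.6 in differentiated cells (-1.50 ± 0.14, adjusted p = 2.59e-06). GFP+ MPC, at 73.1, 58.4 and 63.5 CPM, were below GFP+ myoblasts at 114, 117 and 119 CPM (-0.84 ± 0.14, adjusted p = 0.00023).

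Klf11, a relative of Klf10 that also binds Sin3, rose between the sorted myoblasts and MPC. It was at 11.0, 10.4 and 10.9 CPM in GFP+ myoblasts and at 30.5, 18.0 and 23.3 CPM in GFP+ MPC (log2 change 1.15 ± 0.18, adjusted p = 0.000185). Bulk MPC, at 17.6, 14.1 and 17.5 CPM, overlapped bulk myoblasts at 16.0, 13.5 and 14.8 CPM (0.16 ± 0.18, adjusted p = 0.476), and the difference between these effects is tested below. Klf3, the CtBP-binding repressor, was at 38.5, 39.8 and 34.9 CPM in GFP+ myoblasts and at 35.0, 47.0 and 30.2 CPM in GFP+ MPC (log2 change -0.01 ± 0.16, adjusted p = 0.95). Its bulk myoblasts at 59.9, 51.9 and 70.4 CPM and bulk MPC at 57.2, 50.2 and 50.9 CPM overlapped as well (adjusted p = 0.289). Differentiated cells at 72.4, 76.4 and 93.2 CPM were called higher (0.41 ± 0.16, adjusted p = 0.0423). The call was lost without bulk myoblast replicate 1 or 2 or differentiated replicate 2 or 3 (adjusted p 0.0621 to 0.178), with a replicate block (0.064), on length-scaled counts (0.108) and with no filter (0.123).

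Klf15 rested on few counts. In the 3 GFP+ myoblast libraries 0, 0 and 1 count were assigned to it, against 10, 57 and 16 counts in GFP+ MPC. The ratio of the normalised sums was 92.6 with a 95% counting interval of 16.2 to 3700. Without GFP+ MPC replicate 2 it was 43.5 (7.15 to 1780). Without GFP+ myoblast replicate 3, which holds the single count, Klf15 was at least 22.7-fold higher, against a floor of 3 counts over the group. Bulk myoblasts, at 0.234, 0.0958 and 0.501 CPM, lay below bulk MPC at 3.09, 1.39 and 3.48 CPM (log2 change 3.19 ± 0.69, adjusted p = 0.00144; 3.89 without bulk myoblast replicate 3). They also lay below differentiated cells at 1.23, 1.74 and 1.85 CPM (2.47 ± 0.69, adjusted p = 0.00861; 3.17 without that library). Klf15 had at most 14 counts in each myoblast library before differentiation and at least 10 in each other library. The counting interval covers counting error only and not the spread between libraries.

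**Figure D2:**
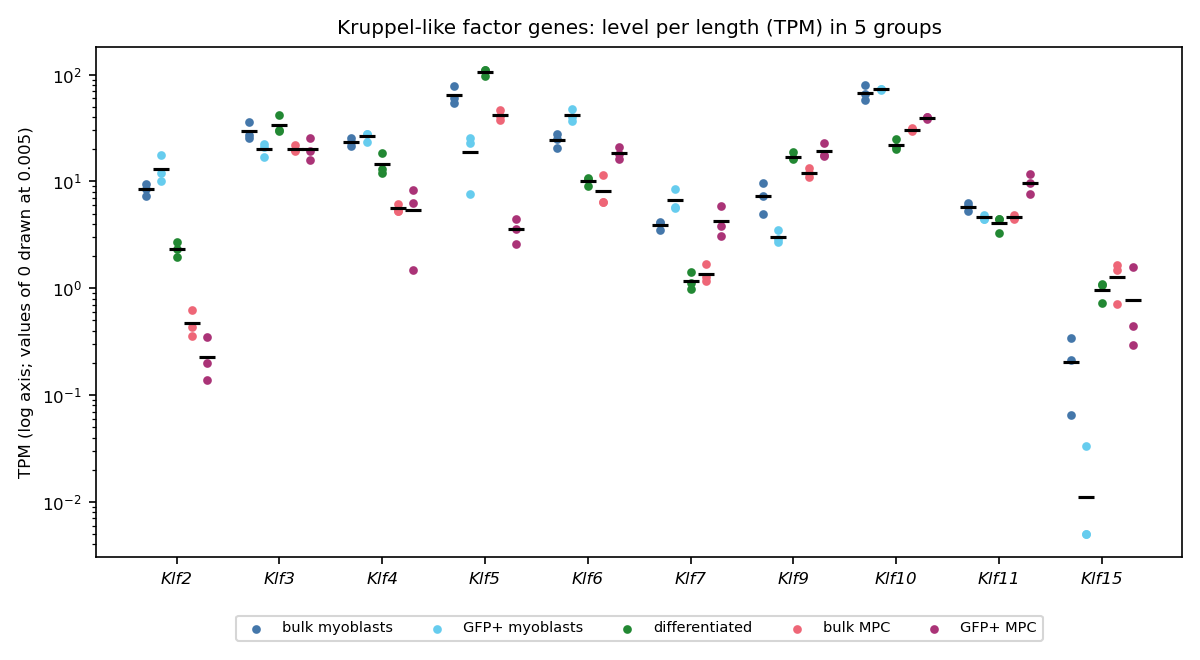
TPM of each of the 10 genes on a log axis in the 5 replicated groups; points are libraries, black bars are means, and values of 0 are drawn at 0.005. Klf5 and Klf10 lead in bulk myoblasts, Klf10 also in GFP+ MPC, and Klf15 is lowest in both myoblast groups.

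Per length, the member with the highest mean level was not the same in every group. In bulk myoblasts Klf10 stood at 67.6 ± 11.1 TPM and Klf5 at 64.7 ± 12.9 TPM (SD, n = 3), within each other's spread. In GFP+ myoblasts the highest levels were 72.7 ± 1.36 TPM for Klf10 and 41.6 ± 5.86 TPM for Klf6. Klf5 led in differentiated cells at 106 ± 7.17 TPM and in bulk MPC at 41.8 ± 4.25 TPM, where Klf10 was at 22.0 ± 2.43 and 30.6 ± 1.09 TPM. In GFP+ MPC Klf10 led again at 39.5 ± 1.15 TPM, ahead of Klf3 (20.2 ± 5.00), Klf9 (19.3 ± 3.02) and Klf6 (18.4 ± 2.38), whereas Klf5 was at 3.55 ± 0.921 TPM and Klf2 at 0.228 ± 0.107 TPM. For Klf6, a short transcript of 799 bases (ENSMUST00000221734) took 23.4 ± 6.5% of the gene's TPM in GFP+ myoblasts and 2.7 ± 2.7% in bulk MPC (SD, n = 3). Its share was 12.7 ± 3.3% in bulk myoblasts, 13.4 ± 2.0% in GFP+ MPC and 21.3 ± 3.6% in differentiated myoblasts. The transcript held 0 to 3.4 estimated counts in the bulk MPC libraries and 69.2 to 114.2 in the GFP+ myoblast libraries. All Klf6 transcripts together held 1673 to 2059 counts in GFP+ myoblasts, so its share of counts was smaller than its share of TPM. TPM is computed with the effective length, which in bulk myoblast replicate 1 exceeded the length for 19484 transcripts. The share was not tested.

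Over the 10 members together, 8 passed the threshold between GFP+ MPC and GFP+ myoblasts (3 higher, 5 lower; 48.6% of all genes tested passed), with a median log2 change of -0.69 against 0.09 over all genes. Between bulk MPC and bulk myoblasts 7 passed (2 higher, 5 lower; 58.5% of all genes), and between differentiated and bulk myoblasts 8 (4 higher, 4 lower; 54.2%). Between bulk MPC and differentiated cells 6 passed (2 higher, 4 lower; 43.8%), and leaving out any 1 of the 6 libraries left 4. Beside Klf2 and Klf4, these were Klf3 (log2 change -0.61 ± 0.16, adjusted p = 0.00734), Klf5 (-1.03 ± 0.32, adjusted p = 0.0181, lost without bulk MPC replicate 2 at 0.0656), Klf10 (0.86 ± 0.14, adjusted p = 0.000288) and Klf11 (0.47 ± 0.18, adjusted p = 0.0486, lost without any library but bulk MPC replicate 2 at 0.0655 to 0.183). With 10 genes, nothing particular to the family is read from these shares. The bulk myoblast libraries serve as the reference in 2 of these comparisons, so the values are given side by side only. For the further pairs used to order levels, the shares of all genes past the threshold were 70.6% for GFP+ MPC with differentiated cells, 59.6% for GFP+ MPC with bulk myoblasts, 69.1% for GFP+ myoblasts with differentiated cells and 70.9% for GFP+ myoblasts with bulk MPC.

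**Figure D3:**
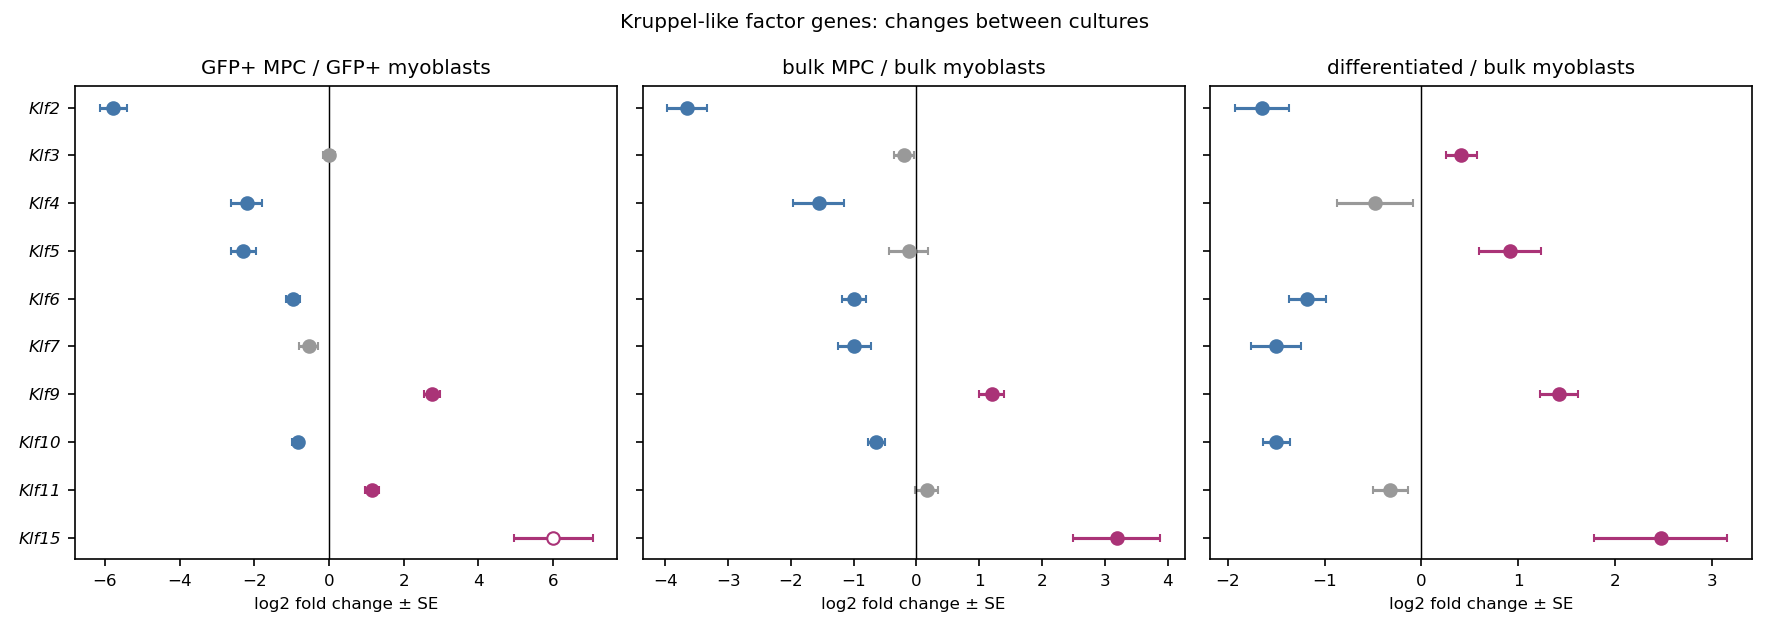
Log2 fold change ± SE (edgeR, 15 libraries) of each gene in 3 comparisons, coloured where the adjusted p passes 0.05 (purple higher, blue lower, grey not past the threshold). The open Klf15 symbol marks a fitted value that rests on 1 count in GFP+ myoblasts; Klf2 is at -5.77 and Klf9 at 2.76 in the first panel.

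Sorted and bulk cells were compared within each culture. GFP+ MPC against bulk MPC passed for 6 members (3 higher, 3 lower; 66.6% of all genes), while GFP+ myoblasts against bulk myoblasts passed for 4, all lower (30% of all genes): Klf3, Klf5, Klf9 and Klf15. That direction depended on the setting: with DESeq2 size factors, DESeq2 or only the groups compared, 2 were higher and 4 lower, and on length-scaled counts 1 was higher and 4 lower. In the MPC comparison, 4 members passed with only the groups compared (1 higher, 3 lower). Klf7 rose in GFP+ MPC (log2 change 1.14 ± 0.26, adjusted p = 0.00153), and Klf2 fell there (-1.58 ± 0.39, adjusted p = 0.00258). That Klf2 call rests on the low MPC counts given above. Klf6 was called higher (0.54 ± 0.18, adjusted p = 0.0191), but not without bulk MPC replicate 1 (0.0775) or 3 (0.089) or GFP+ MPC replicate 3 (0.0666). Klf11 was also called higher (0.54 ± 0.18, adjusted p = 0.0163), but not without bulk MPC replicate 2 (0.0661) or GFP+ MPC replicate 1 (0.0986). Klf3 was called lower (-0.50 ± 0.16, adjusted p = 0.0136), but not without bulk MPC replicate 1 (0.0503) or GFP+ MPC replicate 3 (0.0653). Klf4 did not pass (-0.58 ± 0.40, adjusted p = 0.217), but did without GFP+ MPC replicate 1 (-1.06, adjusted p = 0.0359). Klf9 in MPC did not pass (0.17 ± 0.20, adjusted p = 0.461), but was lower in sorted than bulk myoblasts (-1.38 ± 0.21, adjusted p = 0.000337). For Klf15 the ratio of bulk to GFP+ myoblasts was 23.2 (3.77 to 956), on 23 counts against 1. Dropping GFP+ myoblast replicate 3 made it at least 5.69-fold. The call was lost without bulk myoblast replicate 3 (adjusted p = 0.113) or GFP+ myoblast replicate 1 (0.0852) or 2 (0.0726). Klf3 was lower in GFP+ myoblasts by a log2 change of -0.69 ± 0.16 (adjusted p = 0.00635). The difference of the sort effects, tested as an interaction, passed for 4 of 10 members (37.1% of all genes): Klf2 (-2.11 ± 0.47, adjusted p = 0.00348), Klf5 (-2.17 ± 0.46, adjusted p = 0.00265), Klf9 (1.56 ± 0.29, adjusted p = 0.00111) and Klf11 (1.00 ± 0.25, adjusted p = 0.00792). The same contrast tests whether the change from myoblasts to MPC differed between sorted and bulk cells: for Klf2 and Klf5 it was more negative in the sorted cells, and for Klf9 and Klf11 more positive.

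**Figure D4:**
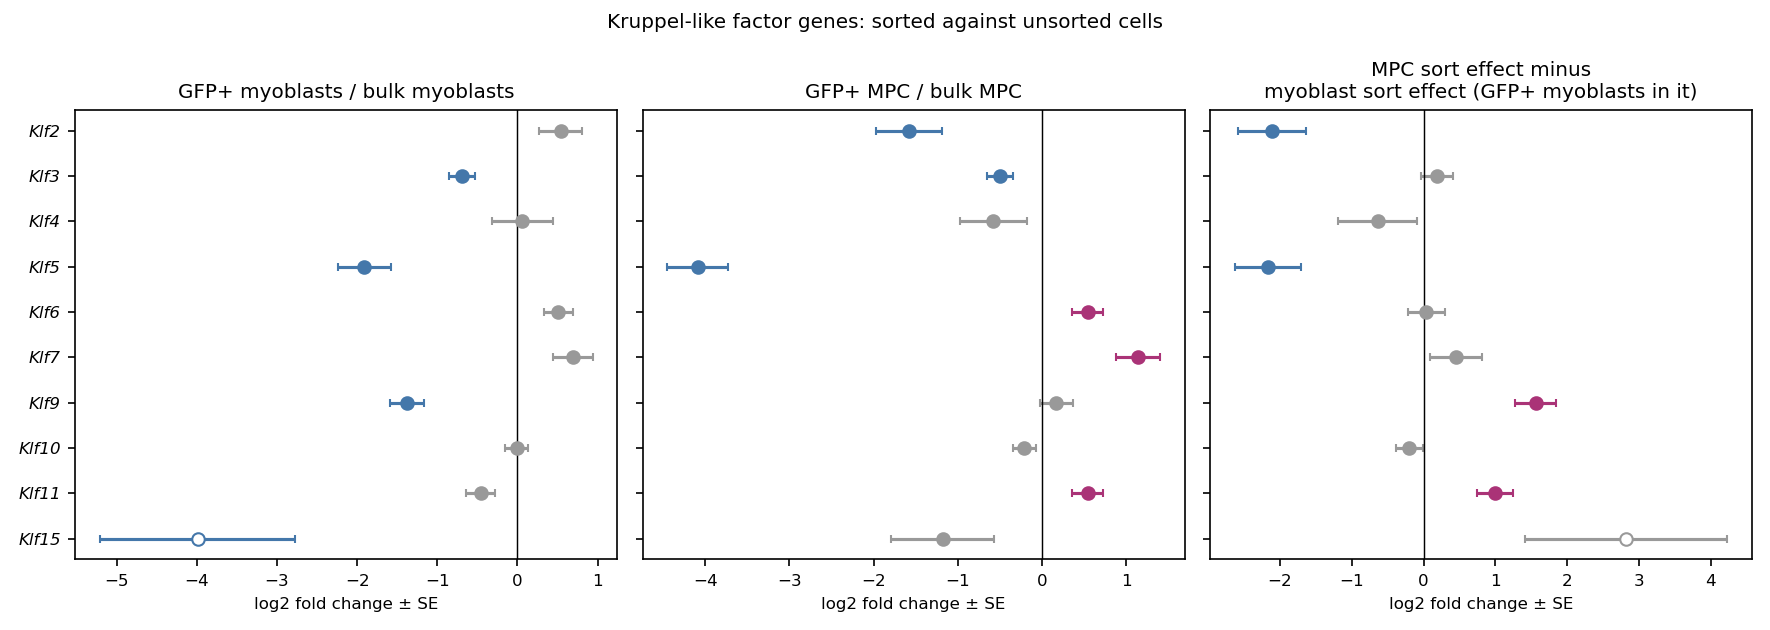
Log2 fold change ± SE of GFP+ against bulk cells in myoblasts and in MPC, and the difference of the 2 effects; purple is higher, blue lower and grey not past the threshold. Klf5 is lower in both, by 1.91 and 4.09; the open Klf15 symbols rest on 1 count.

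Of the other genes of the family, 16 Klf and Sp genes were listed and 12 tested. In GFP+ MPC against GFP+ myoblasts 4 rose and 3 fell (7 of 12, against 48.6% of all genes; median log2 change 0.54). Klf14, a Sin3-binding relative of Klf9, rose from 0.0625, 0.190 and 0.0476 CPM to 9.93, 3.46 and 7.18 CPM (log2 change 6.01 ± 0.70, adjusted p = 1.54e-05); the high-passage library was at 0.0429 CPM. Sp7, the osteoblast regulator, fell from 15.5, 29.6 and 6.9 CPM to 0.181, 0.0843 and 0.0394 CPM (-7.38 ± 0.95, adjusted p = 3.71e-05). Klf8, which like Klf3 recruits CtBP, fell by 4.01 on the log2 scale (adjusted p = 3.24e-08). Klf14 was at most 0.935 CPM in the other 13 libraries, and Sp7 at most 0.561 CPM outside the 6 myoblast libraries. In bulk MPC against bulk myoblasts 0 of the 12 rose and 6 fell (median -0.59), and in differentiated cells 1 rose and 4 fell (median -0.61). Over all genes 58.5% and 54.2% passed in these comparisons, so neither share of relatives lay above the background.

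Partners and pathways of the members were described from lists. Their counts stand against 48.6% of all genes past the threshold between the sorted groups, 58.5% between bulk MPC and bulk myoblasts and 54.2% between differentiated and bulk myoblasts, and several lists lie near these shares. Of 8 TGF-beta ligand, receptor and responsive genes, 7 fell and 1 rose in GFP+ MPC against GFP+ myoblasts (median log2 change -3.39), with Ccn2 at -5.34 and Skil at -4.01, and 7 fell and 1 rose in bulk MPC (median -2.31); in differentiated cells 4 fell and 1 rose (median -0.82). RepSox, in the MPC medium, inhibits a TGF-beta receptor kinase. Of the members known as TGF-beta-induced, Klf10 fell and Klf11 rose between the sorted groups (-0.84 and 1.15), and Klf10 also fell in differentiated cells (-1.50). RepSox cannot be told apart from the other additions to MPC medium or from passage, and the part of this pathway was not tested. Of 9 glucocorticoid receptor and responsive genes, 4 rose and 2 fell in bulk MPC, among them the receptor Nr3c1 (log2 change 2.61 ± 0.21) and Zbtb16 (4.30 ± 0.66), while 3 rose and 2 fell in GFP+ MPC and 0 rose and 2 fell in differentiated cells. Of 7 genes of the ERK5 and Mef2 pathway, 2 rose and 1 fell in GFP+ MPC, and 2 rose and 2 fell in bulk MPC and in differentiated cells. The GFP+ MPC value of Mef2c was 1.75 ± 0.28 on the log2 scale. Mef2c means were 564 CPM in bulk myoblasts, 1930 in differentiated cells, 1220 in bulk MPC, 33.1 in GFP+ MPC and 9.86 in GFP+ myoblasts. Of 7 genes reported as Klf targets in muscle, 3 rose and 2 fell in GFP+ MPC, 4 rose and 1 fell in bulk MPC and 4 rose in differentiated cells. Among them Npnt (nephronectin) was at 65.4, 37.5 and 69.3 CPM in GFP+ MPC against 1490, 1350 and 785 in GFP+ myoblasts, and at 1260, 953 and 1290 CPM in bulk MPC. Of 12 cofactors, 1 rose and 2 fell in GFP+ MPC, with Kat2b at 1.09 ± 0.25, while 3 rose and 5 fell in bulk MPC and 5 rose and 5 fell in differentiated cells.

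Of 16 immediate early and dissociation stress genes, 6 passed in GFP+ MPC against GFP+ myoblasts, where 48.6% of all genes passed. Of these, 4 rose and 2 fell, with Fos at 2.90 and Fosb at 3.07. Fosb rested on replicate 1: it was at 19.5, 1.69 and 0.749 CPM in GFP+ MPC and at 0.762 to 0.986 CPM in GFP+ myoblasts, which overlap. Klf6, itself such a gene, fell in the same contrast. The list summed to 836 to 966 CPM in bulk MPC and to 903, 510 and 487 CPM in GFP+ MPC, of which only replicate 1 lay above the 453 to 530 CPM of GFP+ myoblasts. Bulk myoblasts were at 542 to 585 CPM, and the list's part in the member values was not tested. Markers of fibroblasts summed to 146 CPM in bulk MPC replicate 2 and 128 in bulk myoblast replicate 3, while the other 14 libraries held at most 35.3. Endothelial markers summed to at most 3.22 CPM in each library and macrophage markers to at most 3.63, epithelial markers to at most 1.24 and adipocyte markers to at most 0.333. Pericyte markers summed to 83.3 to 88.4 CPM in GFP+ myoblasts, 118 to 157 in GFP+ MPC, 225 to 286 in bulk myoblasts, 230 to 283 in bulk MPC and 191 to 272 in differentiated myoblasts. Between the sorted groups all 4 passed, against 48.6% of all genes, and 3 rose and 1 fell (median log2 change 3.68). Mean Pdgfrb went from 4.49 to 109 CPM and mean Rgs5 from 80 to 13.4 CPM. Their part in the member values was not tested.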

How the data were processed

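The authors deposited 1 file for each of 16 libraries of cultured mouse muscle cells, with 1 row per transcript. Its columns are, per the file headers, length, effective length (an other unit, in bases), estimated counts and TPM. The submitters' processing notes name kallisto 0.46.1, fastp 0.20.0 and build GRCm39. Transcripts were summed per gene with GENCODE M21 names (GRCm38, names only): 120739 of 121798 matched, and the 1059 unmatched held 0.719% of counts. Estimated counts were rounded and tested with edgeR 4.0.16 (R 4.3.3; quasi-likelihood, TMM, minimum count 10, minimum total 15) in 1 fit of 15 libraries, with Benjamini-Hochberg adjustment over 15533 genes and threshold 0.05. The single high-passage library was only described. DESeq2 1.42.0, other scalings, a replicate block, length-scaled counts, no low-count filter, fits of only the groups compared and leaving out each library were alternatives; the fit was tested on simulated data. Promoters are RefSeq sequence (GRCm38.p6), matched by symbol. All 10 members were named, and of each list up to 3 genes with the largest change past the threshold; 1 such gene is not reported here. The members and the lists were chosen with earlier results of these data known. Replicates of a group were checked for double deposition: chi-square divided by its degrees of freedom ran from 10.2 to 61.2 over pairs, above counting noise. Replicate numbers come from the titles, and library names carry 74, 75 and 76 for replicates 1, 2 and 3 in all 5 groups. The deviations of same-numbered bulk myoblast and bulk MPC libraries from their group means correlated at 0.134, 0.131 and 0.163 (other pairs -0.141 to -0.019). Deviations from a group's own mean cancel out within the group. Positive same-numbered pairs therefore push the other pairs below 0, and the range of those is no separate evidence of pairing. In no other comparison did every same-numbered pair have a correlation over 0.1. The reported fit used no pairing in any comparison, and the replicate block was run as an alternative only.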

Additional observations from a re-analysis of the deposited data

Results flagged for a closer look

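The effect of sorting differed between MPC and myoblast cultures for 4 members, by the test of the difference itself in the edgeR fit. The log2 difference was -2.11 for Klf2, -2.17 for Klf5, 1.56 for Klf9 and 1.00 for Klf11. The Klf2 value rests on 10, 4 and 6 counts in GFP+ MPC and 15, 22 and 13 in bulk MPC. RNA of sorted and bulk cells was prepared with different kits in both cultures, and the kit's part was not tested. Bulk myoblasts were at passage 3 and GFP+ myoblasts at passage 5 to 6, whereas both MPC groups shared their passages, so in this difference sort and passage cannot be told apart.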

How the results depend on the processing

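The count of members past the threshold stayed within 1.5 times of the reported one in all 7 comparisons and all alternatives. Of 899 recomputed member values, 824 kept their direction and side of the threshold, 39 lost the threshold, 14 gained it and 22 changed sign, all of these from values not past it. Sign changes on the log2 scale were Klf10 in GFP+ against bulk myoblasts (0.01 with DESeq2 size factors, 0.02 with DESeq2, 0 on length-scaled counts, -0.13 to 0.13 without single libraries), Klf3 in GFP+ MPC against GFP+ myoblasts (0.11 length-scaled, -0.21 to 0.12 without single libraries), Klf6 in bulk MPC against differentiated cells (-0.04 length-scaled, -0.08 to 0.33) and Klf6 in the sort difference (-0.02 with DESeq2 size factors and with DESeq2, -0.11 to 0.30). Without single libraries the values also crossed 0 for Klf3 in the sort difference (-0.01 to 0.32) and Klf5 in bulk MPC against bulk myoblasts (-0.26 to 0.05). Outside these 7 comparisons, in the pairs used only to order levels, so did Klf7 in GFP+ MPC against bulk myoblasts (-0.21 to 0.35) and Klf9 in GFP+ MPC against differentiated cells (0.02 with no filter, -0.21 to 0.04); the cause was not tested. GFP+ against bulk myoblasts called 4667 genes, and 2719 without bulk myoblast replicate 3; there 6 members passed with DESeq2, its size factors or only the groups compared (2 higher, 4 lower), against 4 (all lower). Klf15 in GFP+ MPC against bulk MPC was -1.18 (adjusted p = 0.103), and -2.26 (adjusted p = 0.00422) without GFP+ MPC replicate 2. Outside bulk MPC and bulk myoblasts, same-numbered libraries were not shown to pair in any comparison, since not every pair of 2 groups had a correlation over 0.1 (30 pairs in all, 8 over 0.1, -0.166 to 0.209). A replicate block changed no call between bulk MPC and bulk myoblasts, and over the 7 comparisons gave 8, 7, 7, 6, 6, 5 and 4 members against 8, 7, 8, 6, 6, 4 and 4. Low counts limit Klf15 most, and also Klf2 in the MPC groups.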

Other observations

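The single high-passage library lay above the range of the 3 GFP+ MPC libraries for Klf3 (72.1 CPM), Klf10 (89.4) and Klf15 (6.35, against 0.453 to 2.40), below it for Klf5 (3.69) and Klf6 (19.9), and within it for the other 5 members. Across the 15 replicated libraries, which share group structure, the closest members by Pearson r of log2 CPM were Klf2 with Klf4 (0.90), Klf6 with Klf7 (0.90) and Klf9 with Klf15 (0.89), and the lowest r was -0.91 for Klf6 with Klf15. Among 13340 protein-coding genes other than the 10 members, the closest to Klf2 was Lpin3 (0.985), to Klf5 Ncam1 (0.990), to Klf6 Iqgap1 (0.983), to Klf9 Mgll (0.966) and to Klf11 its relative Klf14 (0.918). These values describe the same groups and are no test.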
